A study of Mus musculus with 6 samples.

Results

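The genes examined were those of the RNA polymerase I machinery and of core nucleolar proteins, Polr1a, Polr1b, Polr1c, Polr1e, Ubtf, Rrn3, Fbl, Dkc1, Ncl and Npm1. They were taken by gene symbol from a table of 54532 genes, each of the 10 symbols matched 1 row, and all 10 passed the expression filter that left 12944 genes for testing. The RNA came from mouse heart, which the methods of the study describe as ventricular tissue. The control hearts (Ctrl, n = 3) came from Mrps5 fl/fl mice, which carry loxP-flanked alleles of Mrps5, the gene of a protein in the small subunit of the mitochondrial ribosome. The conditional knockout hearts (cKO, n = 3) came from Mrps5 fl/fl; MCM mice, which in addition carry MCM, in which the alpha myosin heavy chain promoter drives the Cre recombinase MerCreMer in cardiomyocytes and tamoxifen activates it. Mice of both groups received intraperitoneal tamoxifen at 45 mg/kg/day for 5 days from 8 weeks of age, and the hearts were taken 12 weeks later. No control carried MCM, so effects of the transgene or of active Cre and effects of losing Mrps5 cannot be told apart in this design. Values are given as FPKM, fragments per kilobase of gene scaled to library size, which allows levels to be set side by side between genes of different length.

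The nucleolus is the compartment in which ribosomes are made. RNA polymerase I transcribes the repeated rDNA genes into a long precursor of ribosomal RNA, small nucleolar ribonucleoproteins guide chemical modification of that precursor, and abundant nucleolar proteins help to fold, process and assemble it with ribosomal proteins. Output of rRNA is known to follow cell growth, and enlargement of cardiomyocytes is classically accompanied by increased ribosome production. The libraries were made from poly-A RNA, so mRNAs of the machinery were measured and rRNA itself was not.

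In cKO hearts 6 of the 10 genes were higher and none was lower (limma; 0 were lower at an unadjusted p under 0.05 or with voom on recovered reads). The genes that rose were Polr1e, Rrn3, Fbl, Dkc1, Ncl and Npm1, by 1.31-fold to 2.33-fold in mean FPKM. Across all genes tested, 16.3% were called higher and 17.0% lower in cKO hearts by the same test (limma on log2 of FPKM + 1, adjusted p under 0.05). The median log2 fold change of the 10 genes was 0.38, beside -0.02 for all genes tested, and 9 of the 10 had a positive value. The same 6 genes had all 3 cKO hearts above all 3 Ctrl hearts, a pattern found in 24.8% of all genes tested. Among the genes called in either direction 48.9% were higher in cKO hearts, and this share was 62.0% when libraries were scaled without the mtDNA-encoded genes, with 6 of the 10 genes called higher under that scaling too. The catalytic subunit Polr1a, the subunits Polr1b and Polr1c, and the rDNA-binding factor Ubtf did not pass the test.

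The sequence upstream of 3 of the genes that rose is shown, so that promoters of genes that moved in the same direction can be set side by side. The search used RefSeq start sites (GRCm38.p6), for which 8 of the 10 genes had an entry, and Fbl and Npm1 had none. In the 250 bases before the start, the E-box CACGTG, which reads the same on both strands, was present in 6.02% of all 32851 promoter windows and in Rrn3 alone among the 8 matched genes. Rrn3 held it at 2 places, beginning 215 and 48 bases before the start. The related letters CACGCG, or CGCGTG on the other strand, were in 7.62% of windows. Of the 8 matched genes, Polr1c and Ubtf held them, and neither of these passed the test. The shares count windows, whereas a gene counts once if any of its windows matched. Ubtf matched in windows of different start sites. The stretches lie at chr16:13780449-13780698 on the plus strand for Rrn3, chr1:86359456-86359705 on the minus strand for Ncl and chr4:45018359-45018582 on the plus strand for Polr1e, cut to stop before the annotated gene, and capitals mark CACGTG.
Rrn3: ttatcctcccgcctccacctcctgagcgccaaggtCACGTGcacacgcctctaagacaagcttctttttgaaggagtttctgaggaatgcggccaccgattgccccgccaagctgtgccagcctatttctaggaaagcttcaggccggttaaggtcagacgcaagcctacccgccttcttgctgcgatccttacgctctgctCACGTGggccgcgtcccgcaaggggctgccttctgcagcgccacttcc
Ncl: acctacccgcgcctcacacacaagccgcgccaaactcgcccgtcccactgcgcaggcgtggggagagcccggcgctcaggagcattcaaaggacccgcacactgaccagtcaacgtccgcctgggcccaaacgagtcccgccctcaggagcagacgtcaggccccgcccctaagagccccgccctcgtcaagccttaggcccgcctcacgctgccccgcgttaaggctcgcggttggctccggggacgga
Polr1e: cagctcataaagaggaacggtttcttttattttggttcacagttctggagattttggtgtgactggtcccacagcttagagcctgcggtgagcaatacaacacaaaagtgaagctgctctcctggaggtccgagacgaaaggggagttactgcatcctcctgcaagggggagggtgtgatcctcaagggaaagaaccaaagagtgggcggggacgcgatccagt
The Ncl stretch, at 69.6% G and C, and the Polr1e stretch, at 51.8%, held neither motif. The Rrn3 stretch was at 59.6%. Dkc1, which also rose and had an entry, held neither motif, and its sequence is not shown. A match or its absence here describes the letters only.

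The libraries held 15989322 to 24875499 reads assigned to genes, worked back from the deposited values, and the totals of the groups overlapped. The deleted gene Mrps5 measured 5.20, 6.45 and 6.33 FPKM in the Ctrl hearts (replicates 1, 2 and 3, the order used throughout) against 1.12, 1.23 and 1.31 FPKM in the cKO hearts, and all cKO hearts lay below all Ctrl hearts. The log2 fold change was -1.65 (SE 0.0944), and 20.4% of the mean Ctrl level was left in the whole tissue. The cKO replicate 2 library stood apart from the other cKO hearts. The mean chi-square per gene against cKO replicates 1 and 3 was 43.1 and 40.8, whereas it was 16.6 between those and 13.2 to 16.7 between Ctrl hearts. It was also the heart with Xist at 10.7 FPKM and with the Y-linked Ddx3y, Kdm5d, Uty and Eif2s3y at 0, whereas Xist was at most 0.127 FPKM and the 4 Y-linked genes were detected in each of the other 5 hearts. This is the pattern of female tissue, whereas the reporting summary of the study states that all mice used were male. The sample labels give no sex. Without this heart 6 of the 10 genes were still called higher, with a median log2 fold change of 0.36 over the 10.

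Cell type markers moved with the groups as well. In bulk tissue fewer cells of a type and less RNA per cell cannot be told apart. The summed level of 6 cardiomyocyte markers was 7125 to 8289 FPKM in Ctrl and 4047 to 6155 FPKM in cKO hearts, with 4 of the 6 lower in cKO hearts. Endothelial markers summed to 109 to 127 FPKM in Ctrl and 71.2 to 86.0 FPKM in cKO hearts (3 of 5 lower), and mural markers to 152 to 167 FPKM and 72.6 to 87.1 FPKM (2 of 4 lower). Fibroblast markers summed to 142 to 165 FPKM and 126 to 136 FPKM (1 higher and 1 lower of 5), and macrophage markers to 88.4 to 121 FPKM and 79.2 to 110 FPKM (1 lower of 4 tested). Sums of 4 atrial markers (26.7 to 996 and 106 to 717 FPKM) and of 4 erythroid markers (869 to 2031 and 577 to 1571 FPKM) overlapped between the groups, with none called. The atrial sums varied widely within each group, at 996, 146 and 26.7 FPKM in Ctrl and 106, 222 and 717 FPKM in cKO hearts. Whether the samples differed in atrial tissue was not tested. The 4 markers of cycling cells summed to 0.587 to 1.40 FPKM in Ctrl and 0.306 to 1.14 FPKM in cKO hearts, and none of them passed the filter. No marker of any list was at 0 in all hearts, and the part of these shifts in the values of the nucleolar genes was not tested.

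Of the 4 RNA polymerase I subunits among the 10 genes, Polr1e alone passed the test. Polr1e (ENSMUSG00000028318, chromosome 4, 45018583 to 45036565, plus strand, 12 exons in the main transcript) encodes the PAF53 subunit, which sits on the outside of the enzyme and takes part in its contacts at the promoter. It measured 3.28, 3.33 and 2.54 FPKM in the Ctrl hearts against 6.69, 8.93 and 5.66 FPKM in the cKO hearts. All cKO hearts lay above all Ctrl hearts, with cKO replicate 2 highest. The means were 3.05 ± 0.447 and 7.09 ± 1.67 FPKM (SD, n = 3 each), a ratio of 2.33. On the scale of log2(FPKM + 1), which understates changes of low genes, the fold change was 0.98 (SE 0.160, 95% interval 0.61 to 1.36, limma adjusted p = 0.00517), and it was 0.83 without cKO replicate 2. The gene overlaps Fbxo10 on the opposite strand, and whether reads were counted by strand was not stated. Fbxo10 was at 2.52 to 3.66 FPKM in Ctrl and 2.73 to 3.39 FPKM in cKO hearts, with overlapping groups.

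Polr1a (ENSMUSG00000049553, chromosome 6, 71909053 to 71984935, plus strand, 34 exons) encodes the largest subunit, which carries the active site together with Polr1b. It measured 5.48, 5.23 and 5.19 FPKM in the Ctrl hearts against 5.19, 5.96 and 5.73 FPKM in the cKO hearts, and the groups overlapped. The means were 5.30 ± 0.159 and 5.63 ± 0.399 FPKM, and the log2 fold change of 0.07 had a 95% interval of -0.11 to 0.25 (adjusted p = 0.499).

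Polr1b (ENSMUSG00000027395, chromosome 2, 129100995 to 129126594, plus strand, 15 exons), the other large catalytic subunit, was the lowest of the 10 genes. Its values were 2.94, 2.27 and 2.26 FPKM in the Ctrl hearts against 2.71, 4.13 and 3.40 FPKM in the cKO hearts. Ctrl replicate 1 lay above cKO replicate 1, and the other 2 cKO hearts lay above all Ctrl hearts. The means were 2.49 ± 0.387 and 3.41 ± 0.712 FPKM, a ratio of 1.37, and the log2 fold change was 0.33 (SE 0.139, 95% interval 0.0023 to 0.66, adjusted p = 0.109). Without cKO replicate 1 it was 0.45 and passed the threshold (adjusted p = 0.0473).

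Polr1c (ENSMUSG00000067148, chromosome 17, 46243920 to 46248054, minus strand, 9 exons) encodes an assembly platform subunit that RNA polymerases I and III share. It measured 8.06, 7.03 and 8.17 FPKM in the Ctrl hearts against 9.73, 7.90 and 9.25 FPKM in the cKO hearts, and cKO replicate 2 lay within the Ctrl range. The log2 fold change was 0.18 (SE 0.0983, 95% interval -0.05 to 0.42, adjusted p = 0.190).

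The initiation factors Rrn3 and Ubtf had values on opposite sides of 0. Rrn3 (ENSMUSG00000022682, chromosome 16, 13780708 to 13814839, plus strand, 18 exons), also called TIF-IA, joins the polymerase to the promoter-bound factors and is the step through which growth and nutrient signals are known to set rRNA synthesis. It measured 11.0, 10.9 and 10.7 FPKM in the Ctrl hearts against 15.2, 15.0 and 14.5 FPKM in the cKO hearts. The hearts of each group lay close together, with SDs of 0.173 and 0.336 FPKM around means of 10.9 and 14.9 FPKM, and the groups did not overlap. The ratio was 1.37 and the log2 fold change 0.42 (SE 0.0628, 95% interval 0.27 to 0.57, adjusted p = 0.00378).

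Ubtf (ENSMUSG00000020923, chromosome 11, 102304560 to 102319742, minus strand, 21 exons) encodes UBF, which coats active rDNA and keeps it open. It measured 13.1, 11.9 and 12.0 FPKM in the Ctrl hearts against 10.4, 10.5 and 12.2 FPKM in the cKO hearts. cKO replicate 3 lay among the Ctrl hearts and the other 2 cKO hearts below them. The log2 fold change was -0.15 (SE 0.0860, 95% interval -0.36 to 0.05, adjusted p = 0.216), the only negative value among the 10 genes.

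The modifying enzymes of the small nucleolar particles were both higher in cKO hearts. Fbl (ENSMUSG00000046865, chromosome 7, 28169710 to 28179269, plus strand, 9 exons) encodes fibrillarin, the ribose methyltransferase of box C/D particles. It measured 7.90, 6.47 and 6.54 FPKM in the Ctrl hearts against 16.4, 12.0 and 13.7 FPKM in the cKO hearts. The lowest cKO heart was well above the highest Ctrl heart. The means were 6.97 ± 0.808 and 14.0 ± 2.23 FPKM, a ratio of 2.01, with a log2 fold change of 0.91 (SE 0.128, 95% interval 0.61 to 1.21, adjusted p = 0.00322).

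Dkc1 (ENSMUSG00000031403, chromosome X, 75095854 to 75109777, plus strand, 15 exons) encodes dyskerin, the pseudouridine synthase of H/ACA particles, which is also a part of telomerase. It measured 4.58, 4.29 and 4.46 FPKM in the Ctrl hearts against 5.56, 6.05 and 5.81 FPKM in the cKO hearts, and the groups did not overlap. The means were 4.45 ± 0.145 and 5.81 ± 0.243 FPKM, a ratio of 1.31, with a log2 fold change of 0.32 (SE 0.0679, 95% interval 0.16 to 0.48, adjusted p = 0.0126). The gene is X-linked, and its highest value was in cKO replicate 2, the heart with Xist. Without that heart the log2 fold change was 0.30 (adjusted p = 0.0285). Without Ctrl replicate 2 it was also 0.30 and the adjusted p was 0.0509, no longer under the threshold of 0.05. Dkc1 overlaps Mpp1 on the opposite strand, which was at 1.88 to 2.31 FPKM in Ctrl and 1.74 to 2.00 FPKM in cKO hearts.

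The most abundant of the 10 genes, Npm1 and Ncl, both rose. Ncl (ENSMUSG00000026234, chromosome 1, 86344719 to 86359400, minus strand, 14 exons) encodes nucleolin, which binds rDNA chromatin and the rRNA precursor, and its introns hold small nucleolar RNAs, whose rows were at 0 FPKM in all hearts. Ncl measured 26.5, 24.2 and 22.3 FPKM in the Ctrl hearts against 44.1, 41.3 and 40.6 FPKM in the cKO hearts. Every cKO heart was far above every Ctrl heart. The means were 24.3 ± 2.10 and 42.0 ± 1.87 FPKM, a ratio of 1.73, with a log2 fold change of 0.77 (SE 0.0848, 95% interval 0.57 to 0.97, adjusted p = 0.00167), the smallest adjusted p of the 10 genes.

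Npm1 (ENSMUSG00000057113, chromosome 11, 33152287 to 33163206, minus strand, 11 exons) encodes nucleophosmin, a histone and ribosome chaperone that forms the outer, granular zone of the nucleolus. It measured 47.8, 47.8 and 44.6 FPKM in the Ctrl hearts against 78.6, 66.4 and 74.1 FPKM in the cKO hearts, with no overlap. The means were 46.7 ± 1.85 and 73.0 ± 6.17 FPKM, a ratio of 1.56, with a log2 fold change of 0.63 (SE 0.0851, 95% interval 0.43 to 0.83, adjusted p = 0.00291). Genes such as Fbl and Npm1 have processed pseudogenes that can take up reads, and it was not stated how multiply aligned reads were counted.

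**Figure D1:**
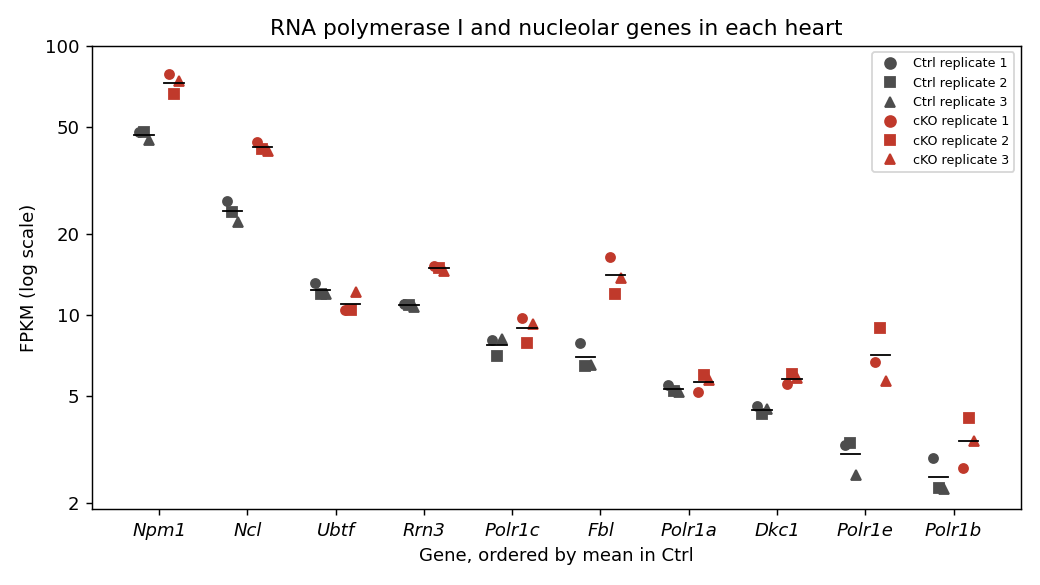
FPKM of the 10 genes in each heart, on a logarithmic axis, with genes ordered by their mean in Ctrl hearts. Grey symbols are Ctrl and red symbols cKO hearts, symbol shapes give the replicate number and bars the mean of 3 hearts. The cKO hearts lie above all Ctrl hearts in Npm1, Ncl, Rrn3, Fbl, Dkc1 and Polr1e.

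The depth behind these values ranged from 239 reads for Polr1e in Ctrl replicate 3 to 10394 reads for Ncl in cKO replicate 3. The highest cKO heart was replicate 1 for 5 of the 10 genes (Polr1c, Rrn3, Fbl, Ncl and Npm1), replicate 2 for 4 (Polr1a, Polr1b, Polr1e and Dkc1) and replicate 3 for Ubtf. The genes highest in cKO replicate 2 thus included both large catalytic subunits, whose groups overlapped. Those highest in cKO replicate 1 included both abundant nucleolar proteins. The share of all genes highest in each heart was not computed, so this describes the values only.

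**Figure D2:**
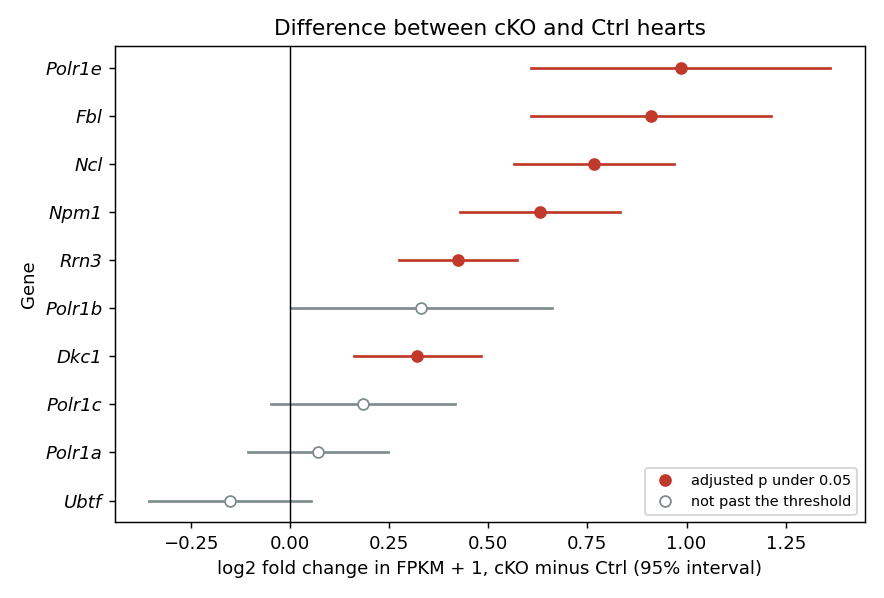
Log2 fold change of FPKM + 1 in cKO relative to Ctrl hearts for each of the 10 genes, with 95% intervals from the fit over all genes. Filled points are genes with an adjusted p under 0.05, and they run from 0.32 for Dkc1 to 0.98 for Polr1e, while the interval of Polr1b starts at 0.0023.

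In Ctrl hearts the order of mean levels was Npm1, Ncl, Ubtf, Rrn3, Polr1c, Fbl, Polr1a, Dkc1, Polr1e and Polr1b. Neighbours in this order overlapped between hearts only for Polr1c with Fbl and for Polr1e with Polr1b. In cKO hearts Npm1 and Ncl kept ranks 1 and 2, Fbl moved from rank 6 to rank 4, Polr1e from rank 9 to rank 7, and Ubtf from rank 3 to rank 5. The order depends on the gene length used, since the table divides by all annotated exons of a gene. For Fbl that length was 4209 bases, 3.52 times the 1197 bases of its main transcript, and per main transcript its Ctrl level was 24.5, which would place it at rank 4. Per main transcript the cKO order placed Fbl at rank 3, Ubtf at rank 4 and Rrn3 at rank 5, against ranks 4, 3 and 6 in Ctrl hearts, and Polr1e again moved from rank 9 to rank 7. The main transcript was the shortest of those annotated as principal. Ubtf has 4 of these, of 2759 to 4692 bases, and a longer one gives it a lower level. The ranks of Fbl and Ubtf therefore rest on that choice, and ranks with the longest were not computed. The ratio of 2 groups in FPKM of the same gene does not depend on the length used.

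Ratios of the levels of 2 genes were also computed within each heart, and not all of these pairs work as direct partners. The 6 ratios were chosen after the values were seen, and 3 against 3 hearts allow no exact two-sided permutation p below 0.1. Rrn3 stood at 0.840, 0.913 and 0.891 of Ubtf in Ctrl replicates 1, 2 and 3 and at 1.46, 1.43 and 1.19 of it in cKO replicates 1, 2 and 3. The mean ratio was 0.881 ± 0.0374 in Ctrl and 1.36 ± 0.148 in cKO hearts (exact permutation p = 0.1, adjusted over 6 ratios 0.12). Whether Rrn3 passed Ubtf in cKO hearts depended on the length used. Per main transcript (2759 bases for Ubtf) the ratio was 0.426 to 0.463 in Ctrl and 0.604 to 0.740 in cKO hearts, all below 1, and with the longest principal transcript of Ubtf (4692 bases) it was 0.725 to 0.788 and 1.03 to 1.26. A change of length multiplies the ratio of every heart by the same factor, so it cannot change whether the groups overlap. Polr1e relative to Polr1a was 0.575 ± 0.0769 in Ctrl and 1.26 ± 0.256 in cKO hearts, with no overlap. The ratio of Fbl to Dkc1 was 1.57 ± 0.139 and 2.43 ± 0.488, and that of Ncl to Polr1a was 4.58 ± 0.272 and 7.51 ± 0.870, also without overlap (exact permutation p = 0.1 and adjusted 0.12 for each). Npm1 relative to Ncl was 1.93 ± 0.107 in Ctrl and 1.74 ± 0.116 in cKO hearts, and the groups overlapped (exact permutation p = 0.2).

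**Figure D3:**
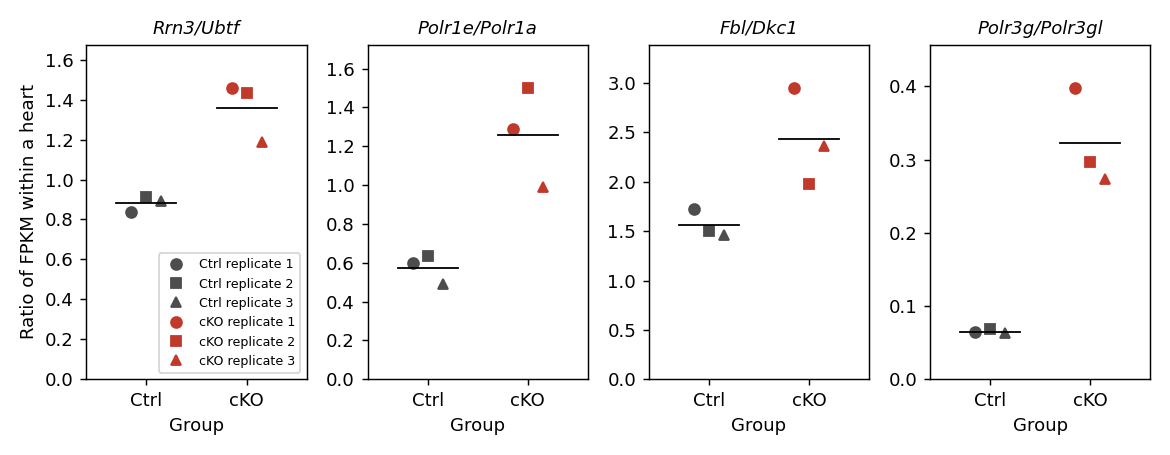
Ratio of FPKM between 2 genes within each heart, for Rrn3 to Ubtf, Polr1e to Polr1a, Fbl to Dkc1 and Polr3g to Polr3gl, on linear axes from 0. Points are hearts and bars are means of 3, and in each panel all cKO hearts lie above all Ctrl hearts, with mean ratios 1.54, 2.19, 1.55 and 4.95 times those in Ctrl.

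The rest of the RNA polymerase I apparatus was described next, from a list of its other subunits and of its promoter factors. Of 15 genes tested 2 were higher and none lower (4 and 0 at an unadjusted p under 0.05, 2 and 0 with voom), with a median log2 fold change of 0.03, beside 16.3% called higher and a median of -0.02 over all genes, so the share called was no larger than the background. Polr2e, a subunit common to the 3 nuclear RNA polymerases, was at 29.3, 29.7 and 26.6 FPKM in Ctrl and 43.9, 32.6 and 38.8 FPKM in cKO hearts (log2 fold change 0.41, adjusted p = 0.0344). Polr2h, likewise common to them, was at 4.90, 5.13 and 4.47 FPKM and 9.32, 6.75 and 6.59 FPKM (0.54, adjusted p = 0.0198). For both genes every cKO heart was above every Ctrl heart. Cd3eap, which encodes the direct partner of PAF53 in the enzyme and was singled out after its values were seen, had 5.43, 5.67 and 5.09 FPKM in the Ctrl hearts against 6.38, 6.69 and 6.01 FPKM in the cKO hearts, which did not overlap but did not pass the test (0.20, adjusted p = 0.0755). Of the 15 genes, 4 had all cKO hearts above all Ctrl hearts and 2 had all below. Over the 12944 genes tested, 3212 lay all above and 3420 all below. Polr1d also lay above without passing the test (0.33, adjusted p = 0.0869). Those below were Ttf1 (-0.16, adjusted p = 0.155) and Tbp (-0.08, adjusted p = 0.463). The lowest value in the list was that of the shared subunit Polr2k at -0.20 (adjusted p = 0.217). Polr2e lost its call under 7 of 15 alternatives and Polr2h under 3. The count of 2 was 0 without Ctrl replicate 1 or without Ctrl replicate 3, 1 without Ctrl replicate 2, cKO replicate 1 or cKO replicate 3, and 3 without cKO replicate 2.

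The subunits found only in RNA polymerase II served as a comparison, since that enzyme makes mRNA. None of 7 passed the test in either direction (limma; 1 was higher and 0 were lower at an unadjusted p under 0.05, and 0 passed with voom), and their median log2 fold change was -0.0044. By the same limma test 16.3% of all genes were higher and 17.0% lower. With only 7 genes, a difference from those shares was not tested. The highest was Polr2g at 0.26 (adjusted p = 0.0667), which was called without Ctrl replicate 2 or with scaling without mtDNA-encoded genes, and the lowest Polr2j at -0.09 (adjusted p = 0.536).

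RNA polymerase III makes tRNAs and the small rRNA that RNA polymerase I does not make, and it shares Polr1c with RNA polymerase I. Of its 11 own subunits 6 were higher and 1 lower, with a median of 0.34, beside 16.3% higher and 17.0% lower over all genes. Polr3g, which is known from embryonic and dividing cells, measured 1.59, 1.47 and 1.38 FPKM in the Ctrl hearts against 7.01, 4.42 and 4.86 FPKM in the cKO hearts (log2 fold change 1.36, SE 0.148, adjusted p = 0.00161). Its paralogue Polr3gl, which takes the same place in the enzyme and is the form common in adult tissue, measured 24.7, 21.4 and 22.0 FPKM in the Ctrl hearts against 17.6, 14.9 and 17.8 FPKM in the cKO hearts (-0.42, SE 0.0968, adjusted p = 0.0175). Both genes had groups that did not overlap, in opposite directions, and the ratio of Polr3g to Polr3gl went from 0.0651 ± 0.00314 to 0.322 ± 0.0660 (exact permutation p = 0.1, adjusted 0.12). Polr3g stood at 0.0625 to 0.0686 of Polr3gl in Ctrl hearts and at 0.273 to 0.397 of it in cKO hearts. Polr3gl was thus still the higher of the pair in every cKO heart. Polr3gl did not pass the test without Ctrl replicate 1 or with scaling that leaves out mtDNA-encoded genes (-0.33, adjusted p = 0.0612). The other subunits that rose were Polr3c (0.50), Polr3d (0.42), Polr3b (0.42), Polr3e (0.34) and Crcp (0.30), with adjusted p of 0.00457 to 0.0489, and of 15 alternatives 10 removed the call of Crcp, 7 that of Polr3e and 1 each those of Polr3b and Polr3d. The count of 6 was 3 without Ctrl replicate 3 and 4 or 5 without any other single heart.

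**Figure D4:**
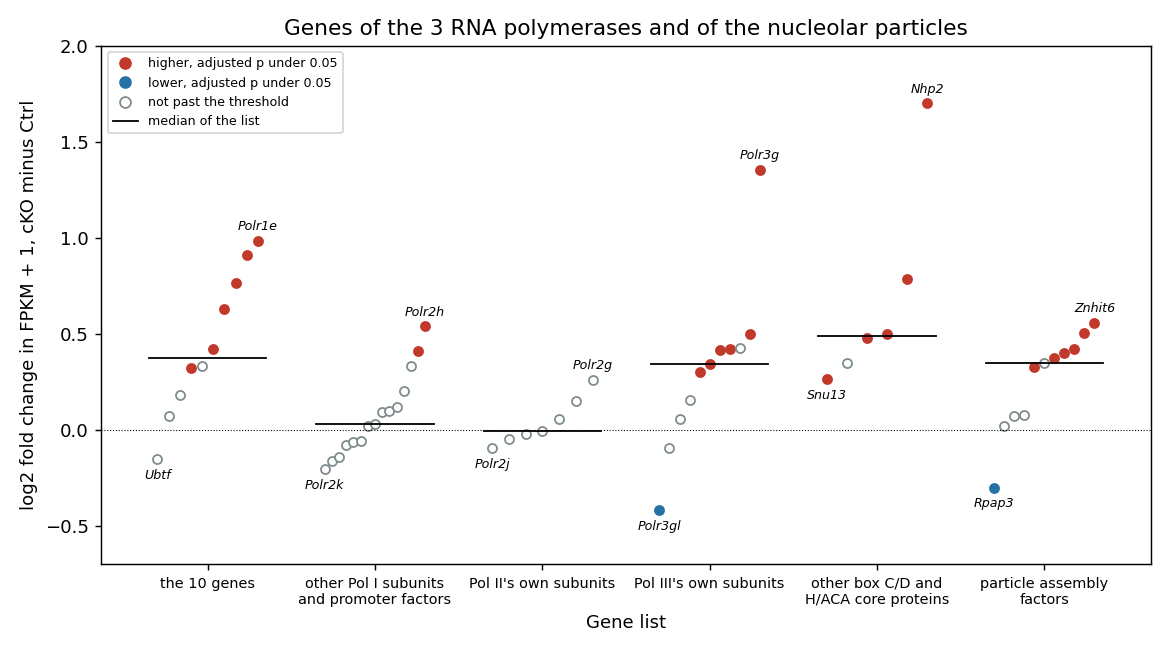
Log2 fold change of FPKM + 1 in cKO relative to Ctrl hearts for the 10 genes and 5 lists of related genes, 1 point per gene, ordered by value within a list. Red and blue points passed the test as higher or lower, open points did not, and bars are medians, which run from near 0 for RNA polymerase II to 0.49 for the other proteins of box C/D and H/ACA particles.

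Fbl and Dkc1 act within particles that have further core proteins. Of the 6 tested 5 were higher and none lower (6 and 0 at an unadjusted p under 0.05 and with voom), with a median log2 fold change of 0.49. Over all genes tested the main fit called 16.3% higher and 17.0% lower, with a median of -0.02. Nhp2, a core protein of H/ACA particles and partner of Dkc1, measured 22.2, 19.8 and 17.3 FPKM in the Ctrl hearts against 84.4, 56.8 and 60.5 FPKM in the cKO hearts. The lowest cKO heart was far above the highest Ctrl heart. Its log2 fold change was 1.70 (SE 0.165, adjusted p = 0.00121), larger than that of any of the 10 genes. Nop58, a scaffold of box C/D particles and partner of Fbl, measured 1.96, 1.73 and 1.42 FPKM in the Ctrl hearts against 3.09, 4.33 and 3.58 FPKM in the cKO hearts (0.78, adjusted p = 0.00464). Gar1 (0.50), Nop56 (0.48) and Snu13 (0.27) also rose, with adjusted p of 0.0328, 0.0241 and 0.0312, and the H/ACA protein Nop10 at 0.35 did not pass (adjusted p = 0.0603). Nhp2 and Nop58 held under all 15 alternatives, whereas Gar1 lost its call under 7, Snu13 under 6 and Nop56 under 3. The count of 5 was 2 without Ctrl replicate 3 and 3 without Ctrl replicate 1, Ctrl replicate 2 or cKO replicate 3. Nhp2 overlaps Rmnd5b (6.27 to 6.79 FPKM in Ctrl and 6.99 to 8.20 FPKM in cKO hearts), and Nop56 overlaps Idh3b, which was at 229 to 252 FPKM in Ctrl and 152 to 167 FPKM in cKO hearts.

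Factors that load these core proteins onto the RNA, or that link the particles to RNA polymerase I, were taken from a list of 11 genes. Of these 6 were higher and 1 lower, with a median of 0.35. All genes tested had 16.3% called higher, 17.0% called lower and a median of -0.02. Ruvbl1, an ATPase of the assembly machinery, measured 10.9, 11.3 and 10.3 FPKM in the Ctrl hearts against 15.9, 16.2 and 15.2 FPKM in the cKO hearts (0.51, adjusted p = 0.00302). Pih1d1 (0.40, adjusted p = 0.0103), which works in the same machinery, and Znhit6 (0.56, adjusted p = 0.0167), an assembly factor of box C/D particles, rose as well. Shq1, a chaperone of newly made dyskerin, was low, at 0.546, 0.460 and 0.708 FPKM in Ctrl and 1.10, 0.843 and 0.964 FPKM in cKO hearts (0.33, adjusted p = 0.0401). Tcof1 (0.42, adjusted p = 0.0429) and Nolc1 (0.37, adjusted p = 0.0458), nucleolar phosphoproteins that bind RNA polymerase I, completed the 6. Rpap3, a scaffold of the assembly machinery, was lower at -0.30 (adjusted p = 0.0257), with 6.10, 6.11 and 6.05 FPKM in Ctrl and 5.26, 4.40 and 4.65 FPKM in cKO hearts. The count of 6 was 2 without Ctrl replicate 1, 3 without Ctrl replicate 2 and 4 or 5 without any other single heart, and the calls of Nolc1, Tcof1 and Shq1 were lost under 7, 6 and 6 alternatives and that of Znhit6 under 1. Rpap3 kept its call without cKO replicate 1 but not without any other single heart.

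Of 4 paralogues of Npm1, Fbl and Ubtf, Npm3 alone passed the filter. Npm3, a nucleolar relative of nucleophosmin, measured 11.8, 13.2 and 12.3 FPKM in the Ctrl hearts against 24.1, 24.6 and 20.7 FPKM in the cKO hearts, without overlap (0.84, SE 0.0897, adjusted p = 0.00154). Npm2 was at 0.0464 to 0.253 FPKM in Ctrl and 0.0384 to 0.124 FPKM in cKO hearts, and Fbll1 and Ubtfl1 were at 0 in all hearts. Npm1 was therefore the most abundant of the nucleophosmin genes in both groups, followed by Npm3.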

How the data were processed

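The authors made poly-A selected, paired-end libraries and, per the labels' processing notes, used HISAT2 2.0.5, featureCounts 1.5.0-p3 and DESeq2 1.16.1. The authors deposited 1 FPKM value per gene and heart. The notes name mm9, but 53585 of 54495 shared gene identifiers had the same start and end in GENCODE M21, and coordinates are therefore GRCm38. Strand setting and counting of multiply aligned reads are not given in the sources used here. Values were whole multiples of 1 read (100% within 0.1 read), from which depth was recovered. The library sizes behind FPKM were 0.913 to 0.980 of the recovered total in Ctrl and 1.06 of it in cKO hearts.

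Groups and replicate numbers came from the sample titles, which do not name animals, so p-values measure the spread between these samples. No pair of hearts in a group agreed within counting noise. Genes with a mean of 0.5 FPKM or more over 6 hearts were fitted on log2(FPKM + 1) with limma 3.58.1 in R 4.3.3 (eBayes with trend, two-sided, no covariates, Benjamini-Hochberg adjustment over 12944 genes, threshold 0.05). The code was first tried on simulated counts with the same dispersion for every gene. That setting is simpler than these data, so it does not show how reliable the calls are here. Ratios within a heart were compared by exact permutation. Alternatives were another pseudocount (0.1) or filter (none, 1 FPKM), 2 scalings (median of ratios, total without mtDNA-encoded genes), eBayes without trend, voom on recovered reads, protein-coding genes only, a replicate block, and leaving out each heart. The genes examined, lists and tests were chosen with earlier results of these data known. Named are the 10 genes, Mrps5, and in each list the genes called with the highest and lowest (at most 6 by size of change). Crcp, Rpap3, Cd3eap, Polr1d, Ttf1, Tbp, Nop10, the paralogues that did not pass the filter, and overlapping and sex-linked genes were added after values were seen. Errors given as ± are SD over 3 hearts.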

Additional observations from a re-analysis of the deposited data

How the results depend on the processing

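Of 150 comparisons of the 10 genes with 15 alternatives, 148 kept direction and side of the threshold and none reversed. Dkc1 lost its call without Ctrl replicate 2 (0.30, adjusted p = 0.0509, range over alternatives 0.00883 to 0.0509), and Polr1b gained one without cKO replicate 1 (0.45, adjusted p = 0.0473, range 0.0473 to 0.254). The number of the 10 genes called higher was 6 in every alternative except these 2 (5 and 7), and their median log2 fold change, 0.38, was 0.44 with a pseudocount of 0.1, 0.45 with scaling without mtDNA-encoded genes and 0.48 with voom. Scaling without mtDNA-encoded genes moved the median of all genes from -0.02 to 0.05, reduced the genes lower among the assembly factors and the RNA polymerase III subunits from 1 to 0 each and raised the RNA polymerase II subunits called higher from 0 to 1. Without a filter, with 26855 genes tested, the higher calls numbered 0 (from 2) for the other RNA polymerase I genes, 3 (from 5) for the particle core proteins and 3 (from 6) for the assembly factors, whose lower calls numbered 0. Leaving out single hearts gave 0 to 3 higher calls for the other RNA polymerase I genes, 2 to 5 for the particle core proteins, 2 to 5 for the assembly factors (lower 0 to 1), 0 to 1 for RNA polymerase II and 3 to 5 for RNA polymerase III (lower 0 to 1). Fewer hearts were fitted in these, and the cause of each loss was not tested otherwise.

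Hearts with the same number in the 2 groups deviated from the group mean with correlations of -0.06, 0.17 and -0.01, so the numbers were not taken to pair the hearts, and replicate 2 alone of the Ctrl hearts correlated best with its own number. With the replicate block all 6 calls among the 10 genes stood, 1874 genes were higher and 1982 lower over all, and the higher calls were 1 for the other RNA polymerase I genes, 3 for the particle core proteins and 3 for the assembly factors. Depth limits most the genes with few reads, such as Polr1e and Polr1b, at 239 to 325 reads in Ctrl hearts.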
